A study of Mus musculus with 6 samples.

Results

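The Adamts genes encode secreted zinc metalloproteases that carry thrombospondin repeats and cut the proteins and proteoglycans of the extracellular matrix. A set of 9, Adamts1, Adamts4, Adamts5, Adamts6, Adamts9, Adamts10, Adamts12, Adamts15 and Adamts16, were followed in primary mouse dermal fibroblasts with and without exposure to a demethylating drug. They are represented by every probe set whose only gene in the platform annotation is a member, which gave 9 of the 18194 genes named in this way and 19 probe sets. By known substrate, 5 members cleave the large proteoglycans aggrecan and versican, 2 act at fibrillin microfibrils, and 2 have other or less settled substrates. The enzymes that trim procollagens (Adamts2, Adamts3 and Adamts14) are not among the 9 and are taken up with the rest of the family.

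Treated cultures received 5-aza-2'-deoxycytidine at 5 µM, renewed every 24 hours over 96 hours, and then spent 24 hours without drug; control cultures were left untreated, and each group has 3 cultures with 1 Affymetrix array each. The drug is a cytidine analogue that dividing cells build into DNA, where it captures methyltransferases and leaves new strands less methylated. All 6 cultures were explanted from dermis of B6 pups of mixed sex, 0 to 2 days old, separately for each biological replicate, and were used at passage 4. Values are MAS5 signals brought to a common trimmed mean, and a signal is compared between groups within a probe set. Between probe sets, only the order of brightness and the changes are compared.

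ADAMTS enzymes are made as inactive precursors that proprotein convertases cut. They bind the matrix, are held in check by the tissue inhibitor Timp3, and are taken up by cells through the receptor Lrp1. In skin they turn over the versican-rich provisional matrix of growing and healing dermis. Adamts4 and Adamts5 are best known as the aggrecanases of cartilage.

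Transcripts of most of the 9 proteases were lower in treated cultures. By limma, 8 of the 9 genes fell and 0 rose, where 41.1% of the 12194 tested genes were called, 21.6% lower and 19.5% higher. The members were chosen with earlier results of these data known, so this contrast describes the set and does not test it. A gene is represented by its brightest tested probe set, and a call is an adjusted p under 0.05 over all 23388 tested probe sets. Adamts1, Adamts5 and Adamts15 fell furthest, to 23.9%, 26.8% and 25.1% of the control mean, and Adamts16 was the gene that did not pass. The median log2 change of the 9 genes was -0.82, and that of all tested genes was -0.0032. In the 8 genes that fell, all 3 treated arrays lay below all 3 control arrays, an arrangement found in 27.4% of tested genes. The calls come from the same arrays, so this separation describes the 8 genes and adds no support to the calls. Of these 8, Adamts15 was above the array median on the control arrays alone, so it had to differ to be tested. Without scaling of the arrays 7 of the 9 fell, Adamts4 being lost, and after quantile normalization 8 did. Fewer fibroblasts and less RNA per cell cannot be told apart in these bulk cultures.

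**Figure D1:**
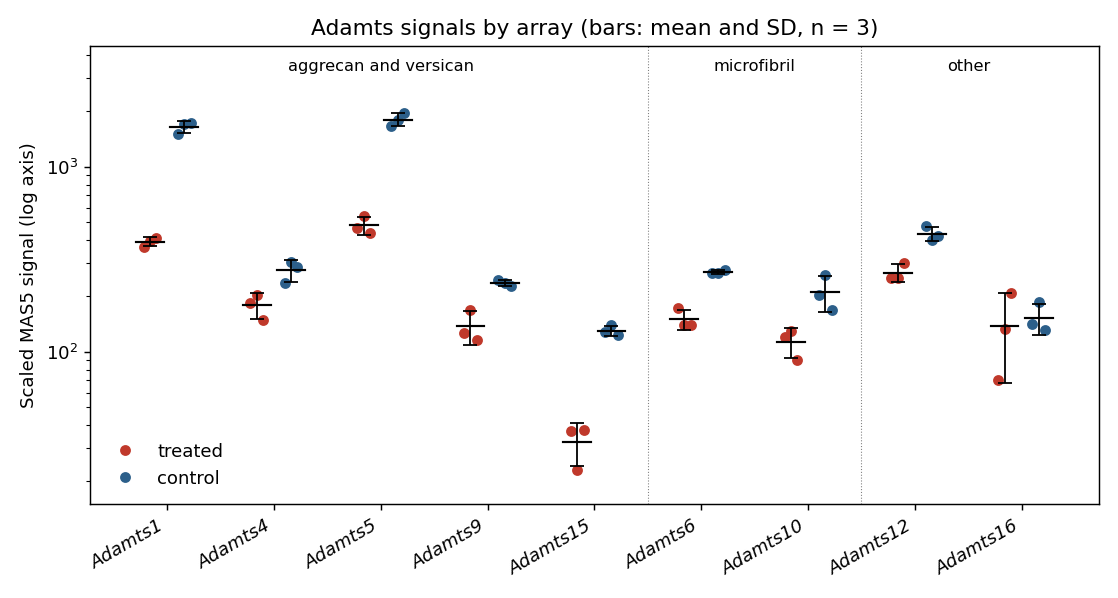
Scaled MAS5 signal (vertical log axis) of the brightest tested probe set of each of the 9 Adamts genes, with 1 point per array, treated left of control, and bars for the mean and SD of 3 arrays. Groups are separate for 8 genes and overlap for Adamts16, whose treated arrays spread from 70.4 to 208.8.

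DNA methylation in mouse cells lies mainly at CpG dinucleotides, so the DNA just before the start of the gene is shown for the 3 of 9 members found in the RefSeq promoter table (GRCm38.p6), each 250 bases long and ending at the base before the start, with every CpG in capitals. Methylation itself is not analysed here.
Adamts1 at chr16:85803114-85803363, minus strand: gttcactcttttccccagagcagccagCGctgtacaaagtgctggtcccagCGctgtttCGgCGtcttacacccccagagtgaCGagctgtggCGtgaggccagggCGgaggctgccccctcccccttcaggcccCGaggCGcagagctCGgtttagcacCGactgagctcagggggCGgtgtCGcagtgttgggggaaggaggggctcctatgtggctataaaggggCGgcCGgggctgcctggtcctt
Adamts9 at chr6:92943535-92943784, minus strand: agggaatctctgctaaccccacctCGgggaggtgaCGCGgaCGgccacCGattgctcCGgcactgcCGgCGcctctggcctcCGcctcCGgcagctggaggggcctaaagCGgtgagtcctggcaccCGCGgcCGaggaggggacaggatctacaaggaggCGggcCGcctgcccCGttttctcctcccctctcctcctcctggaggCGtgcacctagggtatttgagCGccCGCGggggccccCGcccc
Adamts12 at chr15:11064523-11064772, plus strand: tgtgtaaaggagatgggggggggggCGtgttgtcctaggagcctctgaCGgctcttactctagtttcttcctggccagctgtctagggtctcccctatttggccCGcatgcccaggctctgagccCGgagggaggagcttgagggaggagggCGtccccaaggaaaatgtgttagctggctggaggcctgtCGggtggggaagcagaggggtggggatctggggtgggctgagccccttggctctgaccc

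The 3 windows differ in CpG content. Adamts1 holds 15 CpGs with an observed to expected ratio of 0.562, higher than in 63.5% of the 32851 promoters of the table. Adamts9 holds 22 CpGs with a ratio of 0.697, higher than in 73.0% of promoters. Adamts12 holds 6 CpGs, the median number of all promoters, with a ratio of 0.259. A search of both strands found the TATA-box letters TATAAA in Adamts1 (1 match), against 12.4% of all promoters. The letters GGGCGG, an Sp1-type GC box, matched 3 times in Adamts1, 1 time in Adamts9 and 0 times in Adamts12, and occur in 32.7% of promoters. The AP-1 letters TGANTCA matched 0 times in each of the 3 windows and occur in 6.75% of promoters. All 3 windows, CpG-richer or CpG-poorer, stand before genes whose brightest probe set fell, and a link between CpG content and the change was not tested.

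At their brightest tested probe sets, the 5 proteases that cleave aggrecan and versican were all called lower, where 21.6% of all tested genes were. Their log2 changes ran from -2.04 to -0.61. Adamts15 was tested through the controls alone, and the dimmer tested probe sets of Adamts4 and Adamts9 were not called. Adamts1, which cuts versican in many developing tissues, had signals of 368.7, 398.4 and 412.3 on treated arrays 1 to 3 and of 1508, 1693 and 1731 on control arrays 1 to 3. The highest treated array was thus far below the lowest control array. Its log2 change was -2.04 ± 0.090 (SE; adjusted p = 3.55e-07), the lowest of the 9 genes.

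Adamts5, the main aggrecanase of mouse cartilage and also a versican-cleaving enzyme, is read by 3 tested probe sets, and they gave nearly the same change. At the brightest, 1456404_at, treated arrays read 464.2, 543.6 and 440.7 and control arrays 1661, 1782 and 1958. The log2 change there was -1.88 ± 0.10 (SE; adjusted p = 1.28e-06). The probe set 1422561_at changed by -1.90 and 1450658_at by -2.12, and groups did not overlap at either. The fourth, 1456969_at, read from 0.518 to 8.74 on treated arrays and from 1.08 to 12.3 on control arrays, below the 40th percentile of every array, and was not tested.

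Adamts15, which also cleaves versican and aggrecan, was dimmer. Treated signals were 37.0, 22.9 and 37.8 and control signals 127.2, 138.5 and 123.8. All treated arrays placed it below the array median, so it passed the filter on dim probe sets through the control arrays alone and had to differ to be tested. The log2 change was -1.74 ± 0.23 (SE; adjusted p = 0.000271), and with no filter the same change had an adjusted p of 0.000971. Without any 1 control array it was not tested. Leaving Adamts15 aside, the median log2 change of the other 8 members was -0.79.

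Adamts4, the second aggrecanase, fell less. Its probe set 1452595_at read 183.8, 203.4 and 147.7 on treated arrays and 234.3, 305.2 and 288.6 on control arrays, and the log2 change was -0.61 ± 0.15 (SE; adjusted p = 0.0111). The other, 1455965_at, read 128.7, 137.3 and 143.3 on treated arrays and 142.4, 104.3 and 164.7 on control arrays. There the groups overlapped, and the 95% interval of the log2 change ran from -0.38 to 0.41. Without scaling, the change at 1452595_at missed the threshold (-0.68, adjusted p = 0.0521).

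Adamts9, a versican-cleaving enzyme of which the pericellular form is found in many tissues, gave probe sets that pointed different ways. At 1437785_at, treated arrays read 125.9, 169.0 and 115.8 and control arrays 244.7, 236.1 and 225.1. This probe set fell by 0.76 ± 0.15 on the log2 scale (SE; adjusted p = 0.00358). At 1431399_at, treated arrays read 109.2, 144.8 and 130.6 and control arrays 87.9, 104.1 and 108.7, so that every treated array was above every control array, the closest pair by a narrow margin. The log2 change there was 0.32 (adjusted p = 0.162), with a 95% interval from -0.053 to 0.70. The dimmest, 1430352_at, read from 38.2 to 70.1 on treated arrays and from 30.4 to 40.3 on control arrays and was not tested.

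Differences between probe sets of the same gene were compared array by array for 4 pairs. In Adamts9 the change of the brighter probe set minus that of the dimmer one was -1.08 log2 units, and in Adamts4 the same difference was -0.62. In both genes the groups did not overlap, with an exact permutation p of 0.1 (two-sided, n = 3 each), the smallest that 3 against 3 allows, and 0.2 after Benjamini-Hochberg adjustment over the 4 pairs. For Adamts5 the differences were 0.02 and 0.24 (exact permutation p = 0.7 and 0.2). Which transcripts each probe set reads was not tested, so the level of Adamts4 and Adamts9 rests on the probe set chosen.

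**Figure D2:**
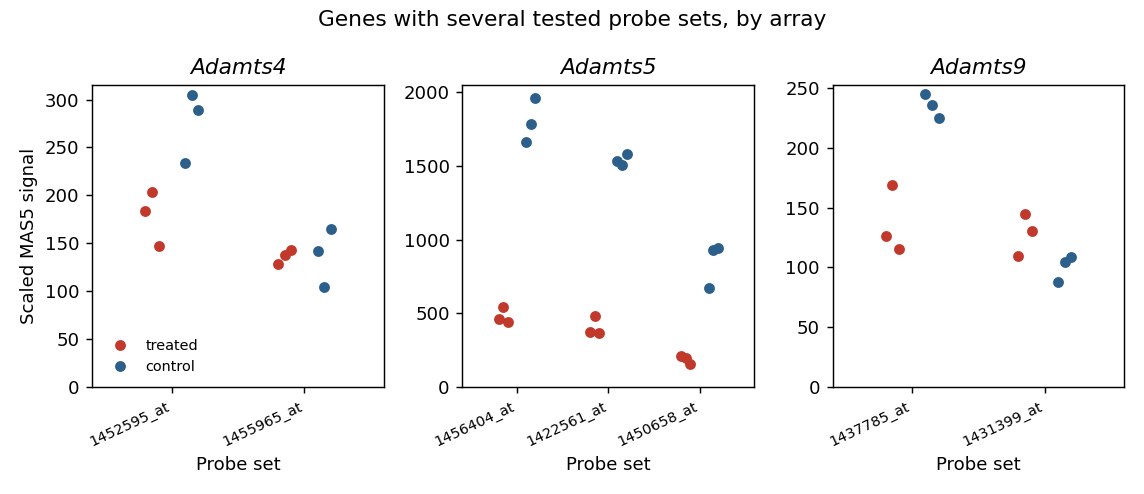
Scaled MAS5 signal (linear axis from 0) of every tested probe set of Adamts4, Adamts5 and Adamts9, with 1 point per array and treated left of control. The 3 probe sets of Adamts5 separate the groups in the same direction, while 1455965_at of Adamts4 overlaps and 1431399_at of Adamts9 is slightly higher in treated arrays.

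Both members tied to microfibrils fell at their brightest probe set, where 21.6% of all tested genes were lower. Adamts10, which binds fibrillin and is mutated in a human connective tissue syndrome of short stature and lens dislocation, had treated signals of 120.2, 129.0 and 90.2 and control signals of 201.4, 260.8 and 168.0. The groups did not overlap, although the control arrays spread widely, and the log2 change was -0.83 ± 0.19 (SE; adjusted p = 0.00712). Adamts6, its closest relative in the family, read 171.3, 138.9 and 138.7 on treated arrays and 264.9, 266.7 and 277.2 on control arrays, with a log2 change of -0.82 ± 0.13 (adjusted p = 0.000733). The control arrays of Adamts6 were tightly grouped and the treated arrays stood well below them.

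Each of these genes has a dimmer probe set that was not tested. That of Adamts6, 1457548_at, read 4.66, 23.4 and 27.3 on treated arrays and 69.4, 44.8 and 61.6 on control arrays. With no filter it was the single one of the 6 untested member probe sets to be called (log2 change -1.38 ± 0.41, SE; adjusted p = 0.0487), where 9.80% of all probe sets were called lower. That of Adamts10 read from 5.86 to 34.4 on treated arrays and from 9.28 to 22.8 on control arrays.

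Of the members with other substrates, Adamts12, a protease reported to cut the cartilage protein Comp, fell. Treated signals were 250.3, 249.4 and 302.7 and control signals 478.0, 404.1 and 420.1, and the log2 change was -0.68 ± 0.12 (SE; adjusted p = 0.00146). Adamts16, whose substrates are less settled, read 70.4, 132.5 and 208.8 on treated arrays and 141.5, 184.9 and 130.9 on control arrays. The treated arrays spanned the whole range of the controls, and no change was called (log2 change -0.24, adjusted p = 0.587). Its 95% interval ran from -0.95 to 0.46, which holds changes as large as those of Adamts6 or Adamts12. Without treated replicate 1 the value was 0.13, and without treated replicate 3 it was -0.59, neither of them called. The dimmer probe sets of Adamts12 and Adamts16 were below the array median on all 6 arrays.

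**Figure D3:**
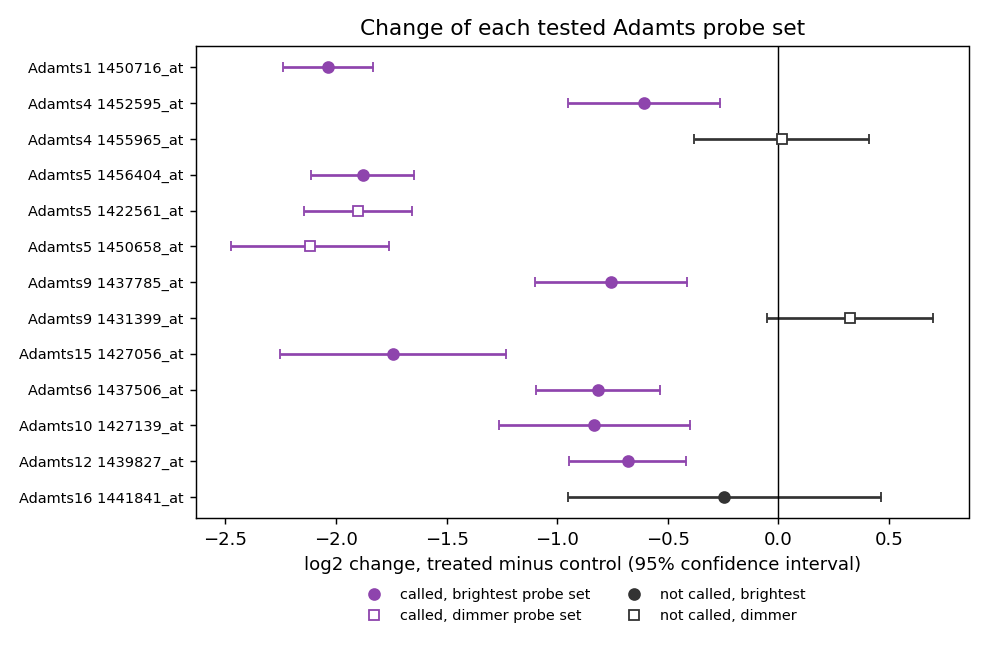
Log2 change, treated minus control, with its 95% confidence interval (horizontal axis) for the 13 tested probe sets of the 9 Adamts genes; filled circles mark the brightest probe set of a gene and purple marks a call. 10 probe sets were lower, none was called higher, and intervals of Adamts16 and of the dimmer probe sets of Adamts4 and Adamts9 cross 0.

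Counted over probe sets, 10 of the 13 tested fell, 0 rose and 3 were not called, where 38.7% of tested probe sets were called, 20.3% lower and 18.4% higher. By the likeness rule, the genes closest to Adamts1 over the 6 arrays among 12193 others were Sulf2, a heparan sulfate sulfatase (root mean square difference of centred log2 signals 0.048), Etl4 (0.073) and Acvr2a, an activin receptor (0.080). Their log2 changes were -1.96, -2.00 and -2.08. A like change follows from the rule, which compares signals over the same arrays. The genes closest to Adamts4 were Dhdds (0.048), Lrrc75a (0.067) and Ankrd12 (0.076), with log2 changes from -0.60 to -0.53.

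None of the other Adamts proteases was tested: of 10 genes in that list 6 had a probe set of their own, and 0 of these passed the filter on dim probe sets. Adamts3, a procollagen-trimming enzyme, read between 11.8 and 38.5 on treated arrays and between 20.6 and 31.1 on control arrays over its 2 probe sets. Adamts2 and Adamts14, of the same class, had no probe set of their own in the annotation used and were not analysed here. With no filter Adamts7, which like Adamts12 is reported to cut Comp, was called lower (log2 change -1.61 ± 0.29, SE; adjusted p = 0.00476), where 13.0% of 18193 genes were called lower and 12.2% higher. Its treated signals were 7.77, 15.7 and 10.5 and its control signals 50.4, 54.1 and 56.8, near or below the array median, so its fold depends on the pseudocount. Adamts8, Adamts18, Adamts19 and Adamts20 were not called at their brightest probe set, although a dimmer one of Adamts18 was higher with no filter (0.98, adjusted p = 0.0378).

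The Adamts-like proteins have the thrombospondin repeats without the protease, and several bind microfibrils. Of 7 on the array 5 were tested, and 3 fell and 1 rose, where 21.6% of all tested genes were lower and 19.5% higher. Adamtsl1 read 47.9, 53.0 and 38.4 on treated arrays and 150.2, 112.7 and 124.4 on control arrays, a log2 change of -1.31 ± 0.20 (SE; adjusted p = 0.000789). Its treated arrays were all below the array median, so it too was tested through the controls alone, and without any 1 control array 2 genes of the list fell. Adamtsl2, which binds fibrillin and Ltbp1, changed by -1.71 ± 0.38 and Adamtsl3 by -1.004 ± 0.252, and their groups did not overlap. Adamtsl4, a fibrillin-binding protein of the eye's zonule, read 116.9, 112.4 and 94.2 on treated arrays and 84.2, 41.3 and 55.6 on control arrays (0.79 ± 0.25; adjusted p = 0.0305). Its call was lost without treated replicate 1 (adjusted p = 0.0934) or 2 (0.0812), without control replicate 2 (0.0836) or 3 (0.0767), with no filter (0.067) and without scaling (0.112). Without control replicate 2 Adamtsl5, which was not called on all arrays (0.49, adjusted p = 0.097), passed instead (0.64, adjusted p = 0.0492). With the replicate number as a block both genes rose.

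Among the proteoglycan substrates and the hyaluronan system that holds them, members went both ways, as did all tested genes (21.6% lower, 19.5% higher), against which the counts of this and the next lists are to be read. Of 10 tested genes of this list 2 fell, 4 rose and 4 were not called, with a median log2 change of 0.40. Versican (Vcan), the large proteoglycan of dermis and a substrate of 5 of the members, had the lowest change: treated arrays read 750.6, 666.4 and 617.6 and control arrays 4348, 5040 and 5166. Its log2 change was -2.82 ± 0.099 (SE; adjusted p = 1.01e-07), and the 3 dimmer tested probe sets of Vcan changed by -2.45, -2.03 and -1.57, all called, the dimmest of them tested through the controls alone. Tnfaip6, Has2 and Acan, named here beyond the rule after their values were seen, stand at different points of the list. Tnfaip6, which links hyaluronan to other matrix proteins, fell (-1.97 ± 0.25), with treated replicate 3 at 454.4 against 206.3 and 208.7 in the other treated cultures and at least 1028 in the controls.

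Receptor and synthase moved the other way. Cd44, the hyaluronan receptor, read 6500, 5720 and 5805 on treated arrays and 1901, 1756 and 1637 on control arrays (1.76 ± 0.086; adjusted p = 6.17e-07). Has2, the main hyaluronan synthase of fibroblasts, had signals of 497.7, 559.0 and 441.9 in treated cultures and 276.5, 290.7 and 204.0 in controls (0.94 ± 0.15; adjusted p = 0.000842). Brevican (Bcan), a brain proteoglycan of the aggrecan family, was higher in treated cultures (1.56 ± 0.18), but its probe set has a name that marks probes shared with other transcripts. Aggrecan (Acan) was not called (0.31, adjusted p = 0.53). The fourth gene to rise, Ncan, a brain proteoglycan, lost its call without treated replicate 3 (adjusted p = 0.0838), control replicate 2 (0.0531) or scaling (0.163), and its dimmer tested probe set was not called (0.15, adjusted p = 0.861).

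Of the 6 tested procollagen genes, substrates of the procollagen-trimming class of Adamts enzymes, the 5 that were above the array median in both groups fell. Col2a1, a cartilage collagen, was also called lower (-1.89), but its treated arrays were all below the median, so it was tested through the controls alone and had to differ to be tested. Col3a1, Col1a1 and Col5a1, fibrillar collagens of dermis, changed by -1.79 ± 0.097, -1.70 ± 0.11 and -1.28 ± 0.085 (SE; adjusted p of 4.06e-06 or less by limma). Probe sets of the same gene differed in size: the dimmer one of Col3a1 changed by -4.10, whereas the dimmer one of Col1a1 was not called (-0.44, adjusted p = 0.0765) and its groups overlapped. Col5a2 changed by -2.27 at its dimmer probe set (adjusted p = 6.18e-07) and by -0.29 at its brightest, whose call was lost without treated replicate 2 or 3 or control replicate 2 or 3 (adjusted p from 0.0616 to 0.0641), without scaling (0.1002), with no filter (0.063) and with no intensity trend (0.0754). Col2a1 was not tested without any 1 control array, and 4 procollagen genes fell without control replicate 2 or 3. In the list of microfibril, Comp and fibronectin genes 3 of 7 tested fell and 3 rose. Fbn2, the fibrillin of developing microfibrils, fell to 52.3, 73.7 and 66.4 in treated cultures, against 1960, 1976 and 2631 in controls (-4.89 ± 0.15), while the latent TGF-beta binding proteins Ltbp1 (0.97 ± 0.11) and Ltbp2 (0.83 ± 0.13) rose. The third gene called lower besides Fbn2 and Ltbp3 was Comp (-0.83), which was tested through the controls alone and not at all without any 1 control array, and lost its call without treated replicate 2 or 3 (adjusted p = 0.106 and 0.0811). The call of Fn1 (0.26) was lost under several settings and its dimmer probe set was not called. The count of the list was then lower, in that 2 fell without treated replicate 3 or any 1 control array, and 2 rose without treated replicate 1 or 3 or control replicate 1 or 2.

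Of the proteins that restrain or clear the proteases, 3 of 8 tested rose and 2 fell. Timp3, the inhibitor that acts on Adamts enzymes, read 2041, 1994 and 1837 on treated arrays and 3981, 4131 and 4505 on control arrays, with no overlap (-1.10 ± 0.080, SE; adjusted p = 7.36e-06). Lrp1, the uptake receptor, fell as well (-0.61 ± 0.13; adjusted p = 0.00527). Timp1, an inhibitor of matrix metalloproteinases with little action on Adamts enzymes, read 6502, 5060 and 5976 on treated arrays and 2472, 2381 and 2399 on control arrays (1.26 ± 0.095; adjusted p = 9.13e-06). Timp2 rose at its brightest probe set (0.48 ± 0.078; adjusted p = 0.000967; 0.41 with adjusted p = 0.0791 without scaling), and its other 4 tested probe sets were not called. The broad inhibitor A2m had a change of 0.82 ± 0.28 (adjusted p = 0.0459), and its call was lost without treated replicate 1, 2 or 3 (adjusted p = 0.104, 0.108 and 0.105), without control replicate 2 or 3 (0.0513 and 0.114), with no filter (0.0939) and without scaling (0.147). Sdc1, Sdc4 and Timp4 were not called at their brightest probe set, although 1 of the 3 dimmer tested probe sets of Sdc1 was higher (0.44, adjusted p = 0.0271).

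Of 4 tested convertases that activate such precursors, 1 fell and 2 rose, Pcsk7 being the weaker riser (0.42, adjusted p = 0.0399); without treated replicate 1 or 2 or control replicate 1 or 3 its call was lost (adjusted p = 0.140, 0.0751, 0.103 and 0.118). Furin rose (0.68 ± 0.14, SE; adjusted p = 0.00377) and was not called without scaling (adjusted p = 0.0807), and Pcsk5 fell (-0.95 ± 0.21; adjusted p = 0.00633). Pofut2 and B3glct, which attach and extend O-linked fucose on thrombospondin repeats and so serve the secretion of these proteases, fell slightly (-0.34 ± 0.072 and -0.43 ± 0.094; adjusted p = 0.00484 and 0.00543), and neither was called without scaling (adjusted p = 0.129 and 0.159). The dimmer 3 tested probe sets of Pofut2 were not called. Over all lists around the members, 19 of 42 tested genes were called lower and 13 higher, where 21.6% and 19.5% of all tested genes were. Among the 19, Adamtsl1, Col2a1 and Comp were tested through the controls alone and had to differ to be tested. The lists were also chosen with earlier results of these data known.

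**Figure D4:**
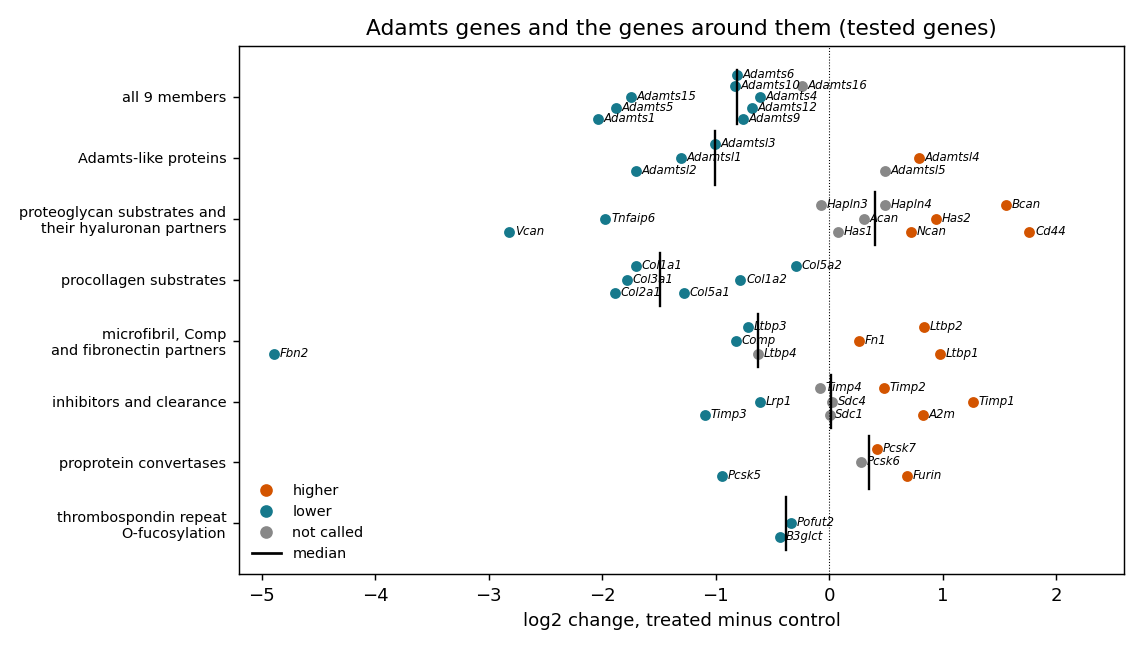
Log2 change, treated minus control (horizontal axis), of each tested gene at its brightest tested probe set, by list, with colour for the call and a vertical bar for the median of the list. The 9 Adamts genes lie at or below -0.24, whereas the inhibitor list runs from -1.10 for Timp3 to 1.26 for Timp1. Some calls, such as Adamtsl4, A2m, Ncan, Col5a2, Comp, Fn1 and Pcsk7, were lost under several other settings. Those of Furin, Timp2, Pofut2 and B3glct were lost only without scaling.

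Other measures moved between the groups as well. The fibroblast marker list had 8 of 10 members lower and 1, S100a4, higher, where 21.6% of all tested genes were lower and 19.5% higher. The other marker counts are to be read against the same shares. Vim was not called (0.13), and Col1a1, Col1a2 and Col3a1 were also counted among the procollagen genes. Bright probe sets weigh most in the summed signals. That of the fibroblast list ran from 30516 to 36646 on treated arrays and from 55701 to 61933 on control arrays. The skeletal muscle list, through Acta1 and Des, summed to between 4743 and 5486 on treated arrays and between 822 and 974 on control arrays, with Myf5, Tnnt3 and Myh3 below the 40th percentile on all arrays. Of the 5 tested cartilage markers 2 fell, Col2a1 and Sox9, and 0 rose. Col2a1 was tested through the controls alone and had to differ to be tested. The sums of the list were 463 to 567 on treated arrays and 643 to 844 on control arrays. Keratinocyte (0 of 3 lower, 1 higher), endothelial (1 of 5 lower, 2 higher), leukocyte (0 of 5 lower, 1 higher) and melanocyte and Schwann cell markers (1 of 6 lower, 0 higher) were mostly dim, and 0 markers were at 0 on every array. The summed signal of the keratinocyte list was 455 to 510 on treated arrays and 234 to 329 on control arrays, and that of the endothelial list 459 to 542 on treated arrays and 346 to 429 on control arrays. For leukocytes the treated sums were 821 to 1075 and the control sums 734 to 875, and for melanocytes and Schwann cells the treated sums were 601 to 681 and the control sums 588 to 759. The Actb control probe sets at the 3' and 5' ends, whose ratio reflects RNA integrity and labelling, had a 3'/5' ratio of 1.16 ± 0.019 in treated cultures and 1.26 ± 0.010 in controls (SD, n = 3 each; exact permutation p = 0.1). The same ratio of Gapdh was 0.764 ± 0.024 in treated cultures and 0.739 ± 0.016 in controls (SD, n = 3 each; exact permutation p = 0.2). Their part in the fall of the Adamts genes was not tested.

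**Figure D5:**
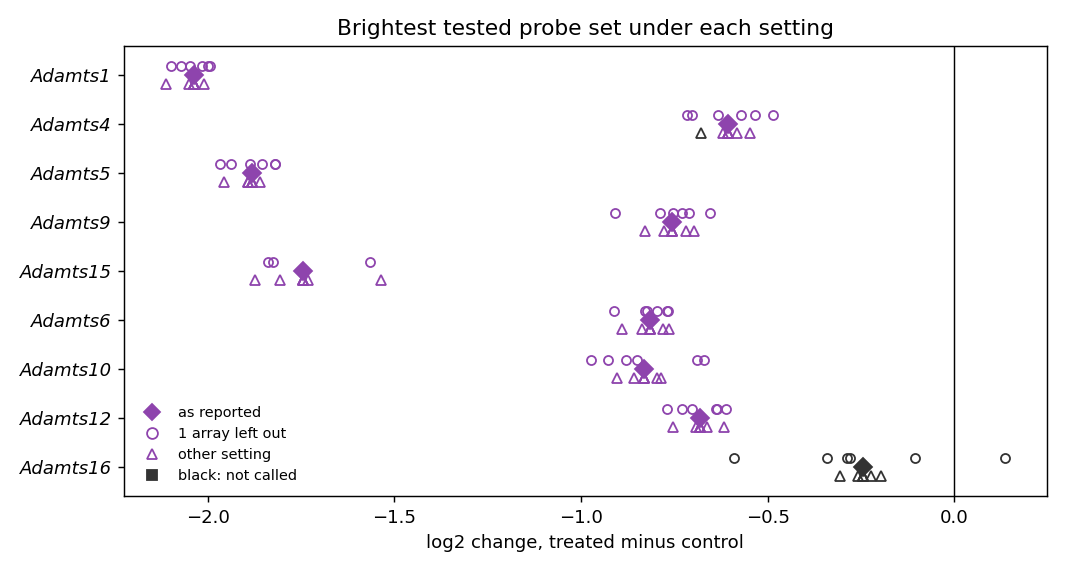
Log2 change, treated minus control (horizontal axis), of the brightest tested probe set of each Adamts gene as reported (diamond), with 1 array left out (circles, upper row of a gene) and under other settings (triangles, lower row). The points of 8 genes stay below 0, black marks the value of Adamts4 without scaling as not called, and Adamts16 runs from -0.59 to 0.13.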

How the data were processed

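Gene expression of 6 cultures was measured with 1 Affymetrix array each. The deposited values are linear signal intensities, which the authors made with MAS5, per the submitters' processing notes; its version, not given in the sources used here, is left out, and no detection calls were used. Per the labels' protocols, total RNA was column-extracted and labelled with biotin by in vitro transcription. Groups and replicate numbers came from the sample titles.

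Each array was multiplied to bring its 2% trimmed mean to 193.2 (149.2 to 223.9 as deposited), and log2(signal + 9.66) was taken. Changes on this scale understate those of dim probe sets. Outside 64 control probe sets, a probe set was tested if above its array median on at least 3 of 6 arrays, which left 23388 of 45037. Groups were compared with lmFit and eBayes (trend on mean intensity) in limma 3.58.1, run in R 4.3.3, two-sided, with Benjamini-Hochberg adjustment over all tested probe sets. Standard errors and 95% intervals are the moderated ones. The number of arrays limits the precision.

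Probe sets with 1 gene (34945), several (932) or none (9160) came from the platform annotation, and 34754 matched GRCm38.p6 by Entrez identifier. Members and lists were chosen with earlier results of these data known. The rule for names took all members, up to 3 genes of each list by smallest p, every called gene of the Adamts-like, other Adamts and inhibitor lists, and the 3 genes closest to the highest and lowest called member. Other genes of the lists, such as Ncan, Col2a1, Col5a2, Comp, Ltbp3, Fn1, Adamtsl5 and Sdc1, were named after their values were seen. Other settings were another normalization, no scaling, other pseudocounts, other filters, no trend, the replicate as a block, and leaving out each array. The fit was tested on simulated data.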

Additional observations from a re-analysis of the deposited data

How the results depend on the processing

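At the brightest tested probe set, the 8 genes that fell kept their direction in every setting in which they were tested. Adamts16, not called in any setting, ran from -0.59 to 0.13. Between 7 and 8 of the 9 genes were lower and 0 higher. The count was 7 without scaling and, since Adamts15 was then not tested, without any 1 control array. With the probe set of lowest p per gene 8 fell, but that choice can only keep or add calls. At their dimmer tested probe sets Adamts4 (-0.16 to 0.15 over the settings) and Adamts9 (0.24 to 0.43) were never called. Over the settings the log2 change of Adamts1 ran from -2.11 to -1.99, of Adamts5 (1456404_at) from -1.97 to -1.82, of Adamts15 from -1.87 to -1.54, of Adamts6 from -0.91 to -0.76, of Adamts10 from -0.97 to -0.67, of Adamts12 from -0.77 to -0.61, of Adamts9 (1437785_at) from -0.91 to -0.65 and of Adamts4 (1452595_at) from -0.72 to -0.48. Without scaling 5019 of all tested probe sets were called, 3042 lower and 1977 higher, and 21 of the genes in the lists around the members, against 32 with scaling; the cause was not tested. With the replicate block, 9541 probe sets and 8 member genes were called. Same-numbered cultures deviated together with correlations of 0.186, 0.172 and 0.072, and 6 of 6 arrays correlated best with their own number, a hint from the data, not the design. Dim signals without detection calls limit what can be said of the 6 untested member probe sets.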

Other observations

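Adamts1 and Adamts5 are next to each other among the protein-coding genes of chromosome 16 in GRCm38.p6, and both fell. Their nearest tested neighbours, picked out after their values were seen, changed less: Cyyr1 by 0.06, App by -0.11 and Ltn1 by -0.21, none of them called except App after quantile normalization (-0.25, adjusted p = 0.00553), while Gabpa, 3 genes before Adamts1, changed by -0.59 ± 0.084 (SE; adjusted p = 0.000437 by limma). Next to Adamts16, which was not called, the homeobox genes Irx1 and Irx2 fell by 0.81 and 0.96 on the log2 scale (adjusted p = 0.000611 and 0.00351). On its other side Ice1 was lower (-0.50) and Med10 was higher (0.62, adjusted p = 0.000279 by limma). These genes too were named after their values were seen. Of 40 tested places up to 3 genes to either side of a member, 17 were lower and 3 higher, where 21.6% of all tested genes were lower and 19.5% higher, genes beside 2 members being counted for each and Adamts1 and Adamts5 being counted as neighbours of each other.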
